A study of Mus musculus with 8 samples.

Results

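The chromosome 1 odorant receptors (ORs) are here the transcript clusters with a single OR symbol from Olfr414 to Olfr433 or from Olfr1404 to Olfr1416. Symbols come from the array annotation, and those with a pseudogene suffix (-ps) were left out. A transcript cluster is the set of probes that covers all exons of a gene on the GeneChip Mouse Gene 1.0 ST array. The rule found 20 clusters of 20 genes, among 1023 OR clusters and 23410 clusters with a gene symbol. The RefSeq gene table (GRCm38.p6) places all 20 genes on chromosome 1.

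Olfactory mucosae came from 8 mice at postnatal day 26, on a mixed 129 x C57BL/6J background. The 4 knockouts were OmpCre:Lhx2(fl/fl), in which Cre inserted at the Omp locus can recombine both floxed Lhx2 alleles in mature olfactory sensory neurons (OSNs). The 4 littermate controls had at most 1 allele that could recombine: 3 were OmpCre:Lhx2(fl/+), and control replicate 1 was Lhx2(fl/+) without Cre. No mouse lacked a floxed allele. In the olfactory epithelium Omp is expressed in mature OSNs only, and the study states that recombination is incomplete. Knockout samples could therefore still hold OSNs with Lhx2. Each mouse was 1 array, and values are log2 expression values. The numbers in the mouse titles begin with 5 (2 knockouts and 2 controls), 7 (1 and 1) or 9 (1 and 1), called title series below. The sources used here do not say what these numbers stand for.

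ORs are the G-protein-coupled receptors of the nose, and each mature OSN transcribes a single allele of a single OR gene. OR genes lie in tandem arrays that grew by local duplication, so that neighbours are often close relatives, and related receptors carry a common family number in names of the MOR type (mouse odorant receptor). Lhx2 is a LIM homeodomain transcription factor, and homeodomain sites are found with O/E-like sites, the sequences bound by Ebf factors, in OR promoters and enhancers. The comparison asks whether OR mRNAs still need Lhx2 once an OSN is mature.

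Markers of mature OSNs were bright in all samples. Of 18 listed genes of OSN signalling and receptor trafficking, 17 were measured, and none averaged below 10.41. Their mean was 11.90 to 11.96 in the knockouts and 12.45 to 12.47 in the controls, with 14 called lower and none higher in limma (adjusted p under 0.05), among them Cnga4 (-2.02 ± 0.12) and Cnga2 (-0.49 ± 0.05), subunits of the odor-gated channel, and Gng13, a G protein subunit (-0.999 ± 0.110). Lhx2 was 11.99 to 12.17 in knockouts and 12.29 to 12.39 in controls (-0.25 ± 0.06, adjusted p = 0.0383). This Lhx2 call was lost without any mouse except knockout replicate 3 (adjusted p = 0.0566 to 0.130), after centring on the array median (0.117) and with all clusters of the table in the adjustment (0.0788). Relative to the mean of the 17 OSN genes Lhx2 was higher (0.28, adjusted p = 0.00298). On this scale 92.5% of all clusters were called higher, and the median of all clusters was 0.58. Omp was 12.37 to 12.88 in knockouts and 13.22 to 13.78 in controls (-0.84 ± 0.15, adjusted p = 0.00568), a call lost with the methods' t-test (adjusted p = 0.0526) and relative to the mean of the 17 OSN genes (0.0679). Cre sits at the Omp locus in the knockouts and in 3 controls, and the control without Cre, replicate 1, held the 13.78. Whether the insertion alters the Omp signal was not tested. Of 13 listed genes of OR gene choice, 3 were called lower, Lhx2, Atf5 (-0.43 ± 0.06) and Ebf3 (-0.22 ± 0.05). Of 10 immature OSN genes, Stmn4 (-0.59 ± 0.13) and Ncam1 (-0.22 ± 0.05) were lower and Tubb3 was higher (0.41 ± 0.06), and of 7 genes of glands and respiratory epithelium Foxj1 was lower (-0.42 ± 0.10). In bulk tissue, fewer OSNs that express an OR and less OR mRNA per OSN cannot be told apart. The study counted labelled cells by in situ hybridization for a few other ORs in this strain, none of them a member. It reports that decreased OR mRNA went with a lower frequency of OSNs expressing the OR. The lists for basal cells, sustentacular cells, macrophages, blood and the vomeronasal organ held no called gene in limma (3 of 27 at an unadjusted p under 0.05), and their means shifted by 0.04 to 0.13, for example 11.41 to 11.58 in knockouts and 11.39 to 11.55 in controls for sustentacular cells.

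Along the chromosome the symbol numbers of the members decreased, except that Olfr418 lay before Olfr433. The genes fell into 2 loci whose members lie under 1 Mb apart. The proximal locus held Olfr1416, Olfr1414, Olfr1413, Olfr1412, Olfr1411 and Olfr1410, in this order. The distal locus held the other 14 members and began with Olfr1408, Olfr1406, Olfr1404 and Olfr418. After a run of interferon-inducible genes it continued with Olfr433, Olfr432, Olfr430, Olfr429, Olfr427, Olfr424, Olfr420, Olfr419, Olfr417 and Olfr414. By their MOR names, 3 members belonged to family 103, 5 to family 105, 2 to family 123, 4 to family 208 and 6 to family 267.

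Upstream sequences of 6 members are printed because they had the 3 largest (Olfr424, Olfr1404, Olfr419) and the 3 smallest (Olfr1413, Olfr417, Olfr1410) decreases in the knockouts described next. Each window runs 5′ to 3′ from 250 bases before to 50 bases after the start of the RefSeq gene model (GRCm38.p6). Capitals mark the homeodomain cores TAATTA and TAATGA on either strand (TCATTA on the other) and the O/E-like letters CCCNNGGG, of which these windows held none.
Olfr424 (chr1:174136496-174136795, + strand): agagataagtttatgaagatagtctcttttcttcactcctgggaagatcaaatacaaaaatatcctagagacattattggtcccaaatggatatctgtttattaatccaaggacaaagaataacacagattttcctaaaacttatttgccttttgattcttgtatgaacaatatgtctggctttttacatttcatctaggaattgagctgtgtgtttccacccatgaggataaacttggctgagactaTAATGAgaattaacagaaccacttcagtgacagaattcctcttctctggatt
Olfr1404 (chr1:173215357-173215656, + strand): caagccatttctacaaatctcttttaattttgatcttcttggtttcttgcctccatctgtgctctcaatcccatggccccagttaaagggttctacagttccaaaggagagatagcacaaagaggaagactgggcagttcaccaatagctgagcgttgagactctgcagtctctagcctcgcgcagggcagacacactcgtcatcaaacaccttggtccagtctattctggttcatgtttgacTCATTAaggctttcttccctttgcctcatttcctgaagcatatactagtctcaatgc
Olfr419 (chr1:174250927-174251226, - strand): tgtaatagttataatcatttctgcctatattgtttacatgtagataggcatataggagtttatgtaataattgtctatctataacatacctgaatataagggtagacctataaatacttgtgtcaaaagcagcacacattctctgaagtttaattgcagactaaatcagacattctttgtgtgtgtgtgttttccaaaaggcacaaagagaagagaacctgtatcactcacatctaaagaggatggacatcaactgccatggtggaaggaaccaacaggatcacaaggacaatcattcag
Olfr1410 (chr1:92607589-92607888, + strand): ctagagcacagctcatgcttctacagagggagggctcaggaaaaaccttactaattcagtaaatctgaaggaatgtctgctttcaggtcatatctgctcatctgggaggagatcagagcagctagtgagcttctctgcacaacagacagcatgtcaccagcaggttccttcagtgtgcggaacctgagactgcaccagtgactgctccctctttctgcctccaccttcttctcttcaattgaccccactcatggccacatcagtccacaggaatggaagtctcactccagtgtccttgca
Olfr417 (chr1:174368669-174368968, + strand): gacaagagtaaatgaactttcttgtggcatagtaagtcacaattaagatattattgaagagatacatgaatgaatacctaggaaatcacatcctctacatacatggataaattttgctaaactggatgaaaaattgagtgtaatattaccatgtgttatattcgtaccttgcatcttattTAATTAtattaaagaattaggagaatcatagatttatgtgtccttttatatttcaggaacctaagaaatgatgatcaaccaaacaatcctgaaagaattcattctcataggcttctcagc
Olfr1413 (chr1:92572875-92573174, + strand): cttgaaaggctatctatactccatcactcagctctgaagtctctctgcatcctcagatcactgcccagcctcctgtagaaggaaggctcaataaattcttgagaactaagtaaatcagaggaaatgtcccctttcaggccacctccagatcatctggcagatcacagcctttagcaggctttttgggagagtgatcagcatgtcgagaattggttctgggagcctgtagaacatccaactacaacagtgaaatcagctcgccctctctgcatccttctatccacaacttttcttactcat

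These letters did not order the members by their decrease. In Olfr424 the only match began 2 bases before the gene start and ran into the start codon, in Olfr1404 it began 7 bases before the start, in Olfr417 70 bases before, and Olfr419, Olfr1410 and Olfr1413 had no match. At least 1 homeodomain core was in 7 of 20 member windows (35.0%), against 41.0% of 924 windows of other ORs and 13.9% of all 32851 windows in the table. TAATTA was in 3 member windows (Olfr433, Olfr430 and Olfr417) and TAATGA in 5. Other homeodomain sequences were not searched, so a window without these cores may still hold a homeodomain site. CCCNNGGG was in none of the member windows, in 3.14% of other OR windows and in 13.7% of all windows. Members with a core had a median log2 change of -1.02 (range -2.13 to -0.53, n = 7) and those without one of -1.15 (range -1.59 to -0.31, n = 13). For 10 of 20 members the gene model starts at the start codon itself, as for 73.1% of other OR windows, so these windows need not hold the transcription start.

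Every one of the 20 chromosome 1 ORs was less abundant in knockouts. All 20 were called lower and none higher, and in all 20 the 4 knockouts lay below the 4 controls. Among the other 1003 OR clusters 83.1% were called lower and 84.2% had all knockouts below all controls, while among all 23410 clusters 6.29% were called lower, 2.1% were called higher and 7.83% had all knockouts below all controls. The median log2 change of the 20 was -1.14 (54.5% lower), beside -1.04 for the other ORs and 0.05 for all clusters. Decreases ran from 19.3% for Olfr1413 to 77.2% for Olfr424. The gap between the highest knockout and the lowest control was widest for Olfr424 (1.43) and narrowest for Olfr429 (0.10). Against the other ORs, 13 members lay within the middle 50% of log2 changes, 5 fell further (25th percentile -1.42) and 2, Olfr1413 and Olfr417, fell less (75th percentile -0.66).

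**Figure D1:**
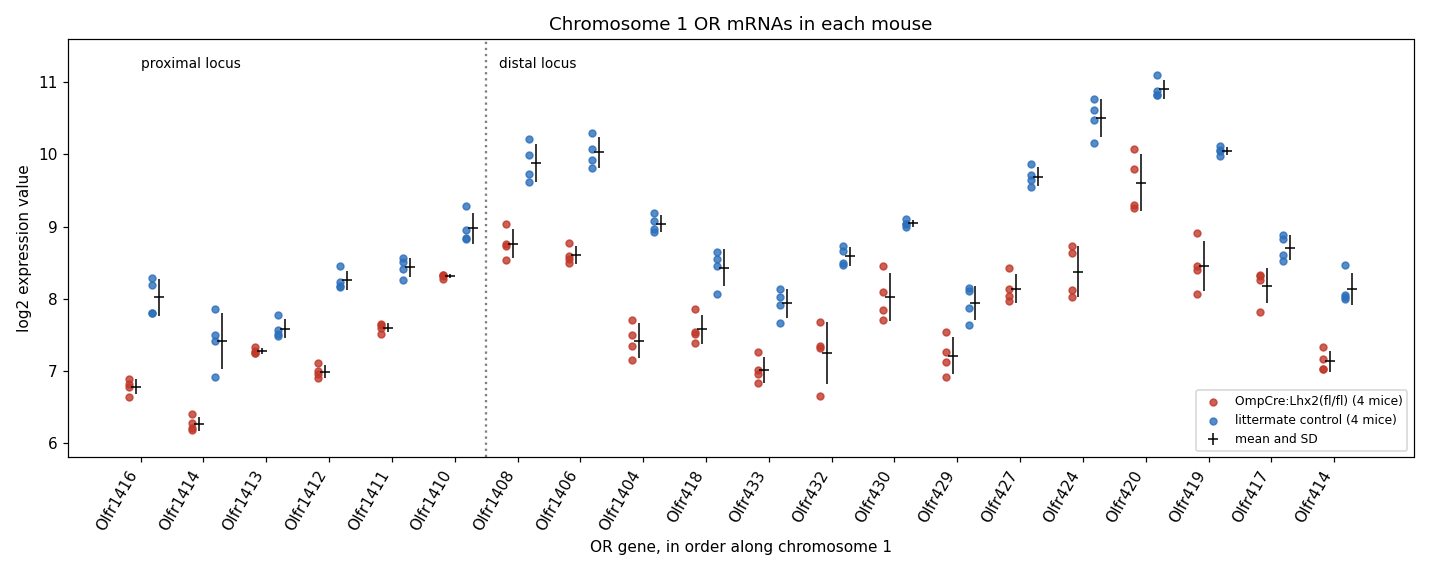
Log2 expression value (y axis) of the 20 chromosome 1 ORs in order along the chromosome (x axis), with red points for 4 OmpCre:Lhx2(fl/fl) mice, blue points for 4 littermate controls, and black marks for mean and SD. In each gene the red points lie below the blue ones, with the narrowest gap (0.10) at Olfr429.

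Family 105 held the largest decrease and the brightest member. Olfr424 was 8.63, 8.73, 8.12 and 8.02 in the knockouts, against 10.62, 10.48, 10.16 and 10.77 in the controls. Its change was -2.13 ± 0.18 (adjusted p = 2.91e-05), 4.38 times lower, and only 2.29% of other ORs fell further. Knockout replicates 3 and 4 held less of it than knockout replicates 1 and 2, and all 4 lay far below the controls. Olfr420, the brightest member in controls, was 9.26, 9.80, 10.07 and 9.30 in the knockouts, against 10.88, 10.82, 10.82 and 11.09 in the controls. It changed by -1.29 ± 0.17 (adjusted p = 0.000648), and knockout replicates 2 and 3 kept more of it than knockout replicates 1 and 4.

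The other members of family 105 fell by different amounts. Olfr427 was 8.14, 8.42, 8.03 and 7.96 in the knockouts, against 9.54, 9.65, 9.86 and 9.71 in the controls. It changed by -1.55 ± 0.11 (adjusted p = 8.42e-06), a 65.9% decrease with a clear gap between the groups. Olfr430 changed by -1.02 ± 0.14 (adjusted p = 0.000855), with knockouts at 7.71 to 8.45 and controls tightly at 8.99 to 9.11. Olfr429 was 7.26, 7.13, 6.92 and 7.54 in the knockouts, against 7.87, 7.64, 8.15 and 8.11 in the controls. Its change was -0.73 ± 0.15 (adjusted p = 0.0103), with the highest knockout, replicate 4, just below the lowest control, replicate 2. The methods' t-test did not call it (adjusted p = 0.0703).

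Family 267 was spread over both ends of the distal locus. Olfr1404 was 7.34, 7.49, 7.70 and 7.14 in the knockouts, against 9.18, 9.08, 8.92 and 8.97 in the controls. It changed by -1.62 ± 0.12 (adjusted p = 9.88e-06), 3.07 times lower. Olfr419 was 8.39, 8.46, 8.91 and 8.07 in the knockouts, against 10.06, 10.04, 9.98 and 10.12 in the controls. It changed by -1.59 ± 0.15 (adjusted p = 5.21e-05), and its controls differed by only 0.06 (SD, n = 4) while its knockouts spread by 0.35. Olfr1406 (-1.42 ± 0.11, adjusted p = 1.38e-05) and Olfr1408 (-1.12 ± 0.14, adjusted p = 0.000455), neighbours of nearly equal signal in controls, were 8.50 to 8.77 and 8.54 to 9.03 in knockouts, against 9.81 to 10.30 and 9.62 to 10.21 in controls. Olfr418 changed by -0.86 ± 0.14 (adjusted p = 0.00244), with knockouts at 7.39 to 7.86 and controls at 8.06 to 8.64.

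Olfr417, also of family 267, had the second smallest decrease. It was 8.32, 8.33, 8.26 and 7.82 in the knockouts, against 8.60, 8.52, 8.83 and 8.88 in the controls. The change was -0.53 ± 0.13 (adjusted p = 0.0299), and knockout replicate 4 stood well below the other knockouts. The call was lost without knockout replicate 3 (adjusted p = 0.0514) or control replicate 1 (0.0522), 3 (0.0791) or 4 (0.0781), and with the methods' t-test (0.119), quantile normalization (0.0646), centring on the array median (0.0581) or all clusters of the table in the adjustment (0.0772). Without knockout replicate 4 the change was -0.40 (adjusted p = 0.0408).

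Family 208 makes up most of the proximal locus. Olfr1412 was 6.90, 6.96, 7.11 and 6.99 in the knockouts, against 8.16, 8.23, 8.17 and 8.45 in the controls. It changed by -1.26 ± 0.08 (adjusted p = 5.54e-06), the smallest adjusted p of the 20, with both groups tight and more than 1 log2 unit apart. Olfr1411 changed by -0.84 ± 0.08 (adjusted p = 4.58e-05) and Olfr1410 by -0.67 ± 0.10 (adjusted p = 0.00133). Olfr1411 was 7.51 to 7.64 in knockouts and 8.27 to 8.57 in controls. Olfr1410 knockouts lay within 8.27 to 8.33 and its controls within 8.83 to 9.29. Olfr1413, the neighbour of Olfr1412, was 7.28, 7.25, 7.24 and 7.33 in the knockouts, against 7.48, 7.52, 7.57 and 7.78 in the controls. Its change of -0.31 ± 0.07 (adjusted p = 0.0283) was the smallest of the 20, and 89.9% of other ORs fell further. This call was lost without any single knockout (adjusted p = 0.0557 to 0.0825) or without control replicate 3 (0.0569), and with the methods' t-test (0.0585), centring on the array median (0.0942) or all clusters in the adjustment (0.0651).

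Families 103 and 123 lay between these extremes. Of family 103, Olfr1416 changed by -1.24 ± 0.12 (adjusted p = 6.97e-05) and Olfr1414 by -1.15 ± 0.17 (adjusted p = 0.00112) in the proximal locus, and Olfr414 by -1.003 ± 0.115 (adjusted p = 0.000234) in the distal locus. Olfr1416 was 6.64 to 6.89 in knockouts and 7.80 to 8.29 in controls, and Olfr414 was 7.02 to 7.33 in knockouts and 7.999 to 8.463 in controls. Olfr1414, the dimmest member in controls, was 6.40, 6.19, 6.28 and 6.20 in the knockouts, against 7.85, 7.50, 7.41 and 6.91 in the controls, so control replicate 4 came nearest to the knockouts. Of family 123, Olfr432 changed by -1.34 ± 0.18 (adjusted p = 0.000787) and Olfr433 by -0.92 ± 0.12 (adjusted p = 0.000521). Olfr432 was 7.32, 7.34, 7.67 and 6.66 in the knockouts, against 8.73, 8.66, 8.49 and 8.47 in the controls, with knockout replicate 4 lowest. Olfr433 was 6.83 to 7.26 in knockouts and 7.67 to 8.14 in controls.

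Neighbouring relatives fell by different amounts, but no pair passed the adjusted threshold. For 13 pairs of adjacent members of the same family and locus, the difference between the log2 changes of both genes was compared by permuting knockout and control labels over all 70 assignments of arrays (exact permutation test, two-sided). The permutation treated all arrays as exchangeable and did not keep title series apart. In 7 pairs the per-mouse differences did not overlap and p was 0.0286, the smallest that 4 against 4 arrays allow. After adjustment over the 13 pairs these stood at 0.0531, so none passed 0.05. With p at its smallest, this value was set by how many pairs reached it, not by the size of their differences. The adjusted threshold therefore cannot decide whether these pairs differ. Among these 7 pairs the largest differences were 1.07 ± 0.16 (SE) between Olfr419, which fell more, and Olfr417, 0.95 ± 0.06 between Olfr1412, which fell more, and Olfr1413, and 0.82 ± 0.21 between Olfr427, which fell more, and Olfr429, each with exact permutation p = 0.0286. Olfr424 fell by 0.84 ± 0.29 more than Olfr420 and by 0.58 ± 0.21 more than Olfr427, with overlapping per-mouse differences (exact permutation p = 0.0571 and 0.0857). Olfr1416 and Olfr1414 differed by 0.08 ± 0.15 (exact permutation p = 0.543). Whether related receptors share probes on the array was not examined.

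The loci and families overlapped widely in their changes. The 6 proximal members had a median log2 change of -1.0 (range -1.26 to -0.31) and a median control level of 8.14. The 14 distal members had a median of -1.21 (range -2.13 to -0.53) and a median control level of 9.04. Family medians were -1.15 for family 103, -1.29 for family 105, -1.13 for family 123, -0.75 for family 208 and -1.27 for family 267. Across the 20 members, brighter control signal went with a larger decrease (Pearson's r = -0.62, Spearman's rho = -0.58, across genes measured on the same arrays), as it did across the other ORs (rho = -0.49). The control values enter both measures. Control signal was brightest for Olfr420 (10.90 ± 0.13, SD, n = 4), Olfr424 (10.51 ± 0.26), Olfr419 (10.05 ± 0.06), Olfr1406 (10.03 ± 0.21) and Olfr1408 (9.89 ± 0.26), but signals of different probe sets are not abundances.

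**Figure D2:**
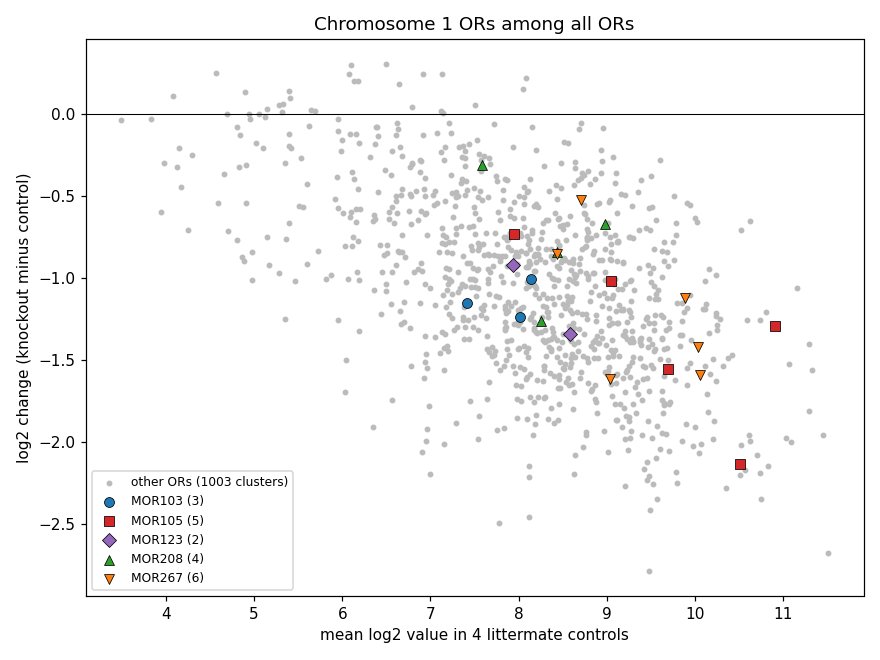
Log2 change (knockout minus control, y axis) against the mean log2 value in 4 controls (x axis) for 1003 other OR clusters (grey) and the 20 chromosome 1 ORs, coloured by MOR family. The chromosome 1 ORs run from -0.31 (Olfr1413) to -2.13 (Olfr424) and lie inside the cloud of other ORs.

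Each of the 20 members was lower in all 3 title series, and all 20 were called when limma blocked on title series. Median differences were -1.19 in series 5, -0.92 in series 7 and -1.17 in series 9, and single differences ran from -2.75 for Olfr424 in series 9 to -0.20 for Olfr418 in series 7. Series 7 (knockout replicate 3 and control replicate 3) gave the smallest decrease for 10 of 14 distal members (71.4%) and 1 of 6 proximal members, and for 48.2% of other ORs. Over Olfr418, Olfr433 and Olfr430 the series 7 differences were -0.20, -0.41 and -0.58, against -1.09, -1.10 and -1.11 in series 5 and -1.05, -1.08 and -1.27 in series 9. Olfr429, next to Olfr430, had its largest decrease in series 7 (-1.23, against -0.56 in series 5 and -0.57 in series 9). For Olfr427 the differences were -1.31 in series 5, -1.83 in series 7 and -1.75 in series 9. Series 7 and 9 have 1 mouse per group each, so differences between series were not tested.

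**Figure D3:**
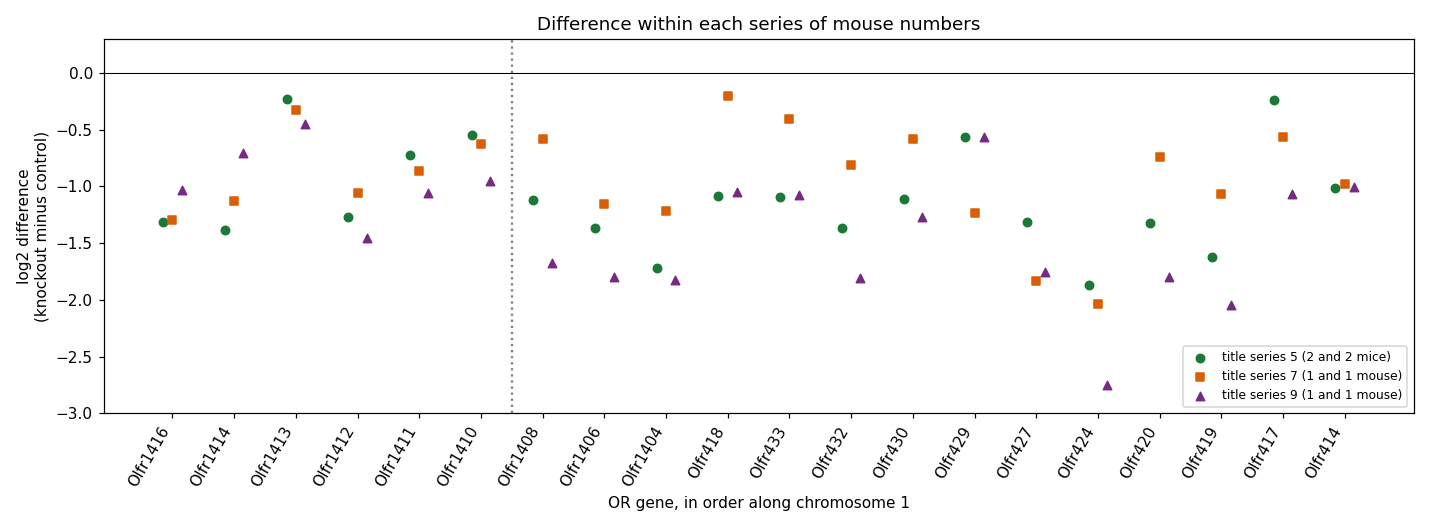
Difference in log2 value between knockout and control (y axis) within title series 5 (circles, 2 and 2 mice), 7 (squares, 1 and 1) and 9 (triangles, 1 and 1) for the 20 ORs in order along chromosome 1 (x axis). All points lie below 0, from -0.20 (Olfr418, series 7) to -2.75 (Olfr424, series 9).

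Other receptor genes of both loci fell outside the symbol numbers used here. Of 6 such ORs without a pseudogene suffix, 5 were called lower. Olfr220, next to Olfr414 at the distal end, was 9.44, 9.63, 9.41 and 9.43 in the knockouts, against 11.25, 11.23, 11.38 and 11.29 in the controls (-1.81 ± 0.07, adjusted p = 7.25e-07). Olfr231 (-1.38 ± 0.10), Olfr218 (-1.20 ± 0.14), Olfr16 (-1.18 ± 0.19) and Olfr12 (-0.84 ± 0.09) were lower as well. Olfr248, between Olfr417 and Olfr414, was not called. It was 6.47, 6.74, 6.38 and 6.56 in the knockouts, against 6.79, 6.03, 6.86 and 6.83 in the controls, groups that overlap, with a change of -0.09 ± 0.18 (adjusted p = 0.836) and a low value in control replicate 2. Without that control the change was -0.29 (adjusted p = 0.110), and the other 3 controls lay above all 4 knockouts. The pseudogene Olfr421-ps1, between Olfr424 and Olfr420, changed by -0.85 ± 0.20 (adjusted p = 0.0225). This call was lost without knockout replicate 1, knockout replicate 4 or control replicate 4 (adjusted p = 0.0571 to 0.0765). It was also lost with the methods' t-test (adjusted p = 0.117), all clusters in the adjustment (0.0631) or relative to the mean of the 17 OSN genes (0.143). A cluster shared by Olfr1414, Olfr1415 and Olfr1416 changed by -1.03 ± 0.09 (adjusted p = 3.55e-05).

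Few of the non-receptor genes among or beside these ORs passed the test. The 34 such genes were all protein-coding non-OR genes with a single-symbol cluster between members, and the nearest 5 on each side of each locus. Of the 34, 2 were called lower and 1 higher, beside 2.28% lower and 2.21% higher among 22260 clusters without an OR or TAAR (trace amine-associated receptor) symbol. Their median change was 0.00. Ndufa10, a subunit of mitochondrial complex I next to Olfr1416, changed by 0.10 ± 0.06 (adjusted p = 0.458), and Cops9, a signalosome subunit on the other side of the proximal locus, by -0.03 ± 0.10 (adjusted p = 0.919). The 14 genes inside the distal locus, which include 9 interferon-inducible Ifi genes and Aim2, had changes of -0.29 to 0.17. Cadm3, an adhesion molecule past Olfr418 and Ackr1, was the only one called (-0.29 ± 0.08, adjusted p = 0.043), and the call was lost without any mouse except knockout replicate 1 or control replicate 4 (adjusted p = 0.0910 to 0.140). It was also lost with the methods' t-test (adjusted p = 0.0768), centring on the array median (0.0764) or all clusters in the adjustment (0.0932). Relative to the mean of the 17 OSN genes Cadm3 was higher (0.24, adjusted p = 0.0103). On this scale 30 of the 34 genes were called higher, and the median of the 34 was 0.53. Twist2, a transcription factor beside the proximal locus, had the largest positive change of the 34 (0.44 ± 0.13, adjusted p = 0.0832) and was not called.

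Rgs7 lay just beyond the distal locus and had the largest change of the 34. Rgs7 is a regulator of G protein signalling, separated from Olfr220 by Fmn2 among the genes measured here. It was 7.51, 7.62, 7.47 and 7.44 in the knockouts, against 9.82, 9.50, 9.86 and 9.52 in the controls. Its change was -2.17 ± 0.09 (adjusted p = 1.02e-06), 77.7% lower, with -2.10, -2.39 and -2.08 within title series 5, 7 and 9. Fmn2, an actin nucleator lying between Olfr220 and Rgs7, changed by -0.20 ± 0.07 (adjusted p = 0.127). Past Rgs7, Fh1, an enzyme of the citric acid cycle, changed by 0.15 ± 0.07 (adjusted p = 0.313). Kmo, an enzyme of tryptophan breakdown, was higher by 0.27 ± 0.06 (adjusted p = 0.025). The Kmo call was lost without knockout replicate 2, 3 or 4 or control replicate 1 or 4 (adjusted p = 0.0593 to 0.0914). It was also lost with quantile normalization (adjusted p = 0.114) or all clusters in the adjustment (0.0544).

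**Figure D4:**
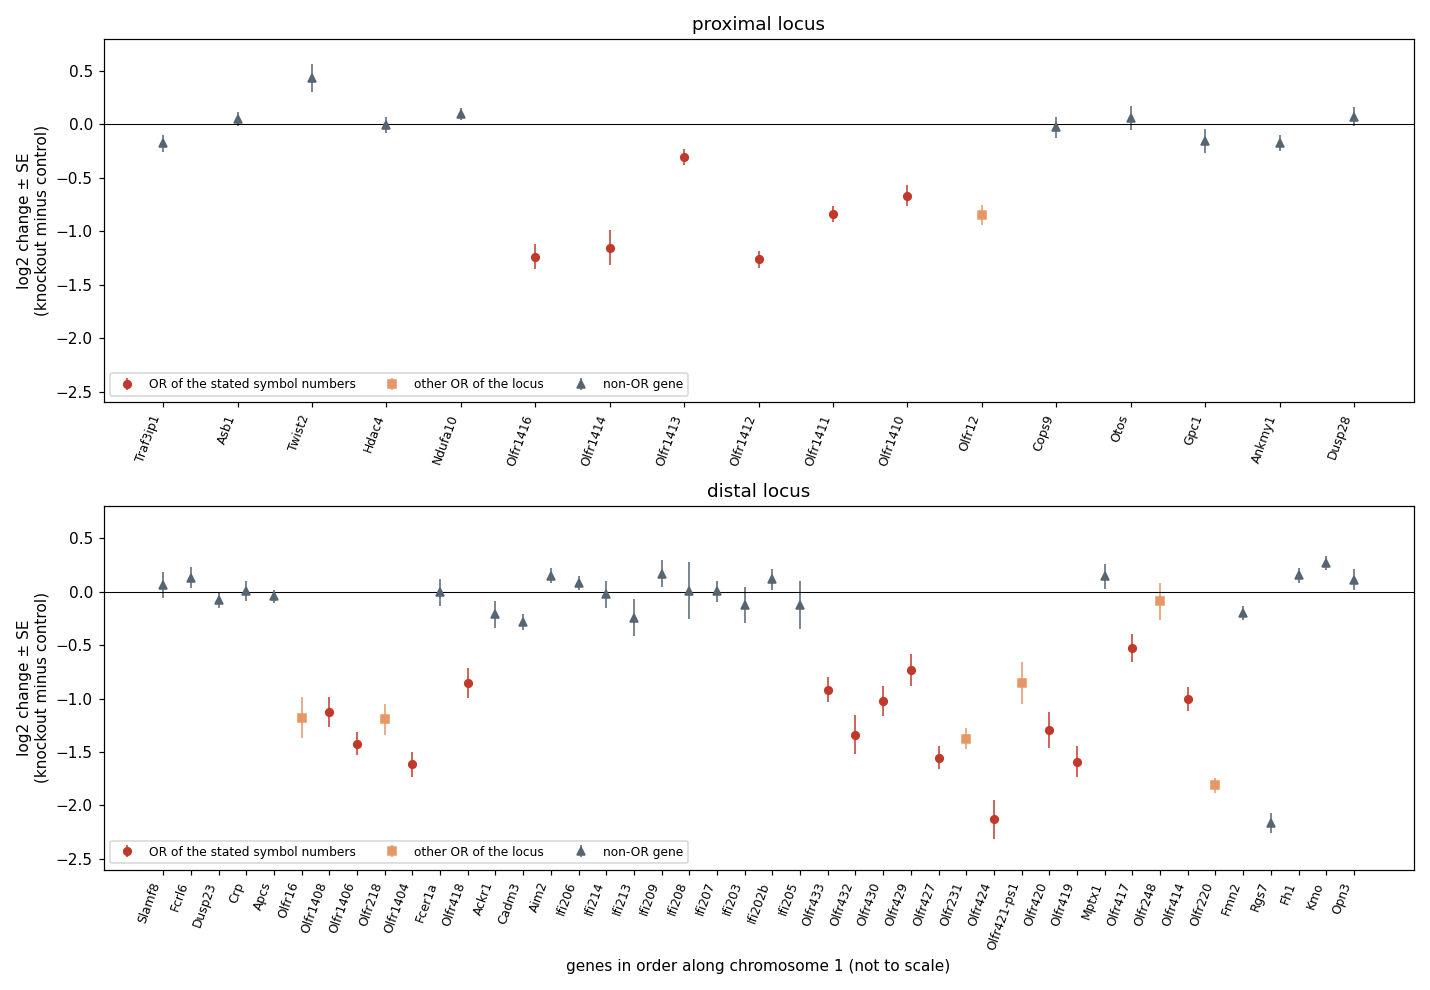
Log2 change (knockout minus control) with its SE (y axis) for genes in order along chromosome 1 (x axis, not to scale), in the proximal locus (top) and the distal locus (bottom). Red circles are the 20 ORs, orange squares other ORs of the loci and grey triangles non-OR genes, which lie between -0.29 (Cadm3) and 0.44 (Twist2) except Rgs7 (-2.17).

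Markers of mature OSNs also fell, so each member was set against them. Relative to the mean of the 17 measured OSN genes, the median change of the 20 members was -0.61, beside -0.51 for the other ORs, while the median of all clusters moved to 0.58. On this scale 16 members were called lower, 1 higher and 3 were not called. Of other ORs 63.6% were called lower and 8.08% higher, and of all clusters 3.59% were lower and 92.5% higher. Olfr424 (-1.60 ± 0.17), Olfr1404 (-1.09 ± 0.12), Olfr419 (-1.06 ± 0.15) and Olfr427 (-1.02 ± 0.11) fell furthest beyond these genes. Olfr1413 was higher on this scale (0.22 ± 0.07, adjusted p = 0.0147). Olfr417 (0.00 ± 0.13, adjusted p = 0.987), Olfr429 (-0.20 ± 0.15, adjusted p = 0.197) and Olfr1410 (-0.14 ± 0.10, adjusted p = 0.190) did not pass. The list held 14 called genes itself, so the size and sign of these differences depend on which OSN genes are chosen. The mean of the 17 genes shifted by -0.53 between groups. For its longer list of mature OSN mRNAs the study reports a smaller average decrease in these mice. Olfr1413 and Olfr417 were thus placed against these 17 genes only, not against the number of mature OSNs.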

How the data were processed

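Each array measured the olfactory mucosa of a single mouse. The authors deposited log2 expression values per transcript cluster, made with Affymetrix Expression Console from equal amounts of total RNA (for its version, background correction and normalization: not given in the sources used here), and these were used as deposited. Values ran from 2.35 to 14.6, with array medians of 7.87 to 8.00. Arrays give no counts, so their number limits the precision. The study's rescaling to a long list of mature OSN mRNAs was not used here.

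Of 35557 clusters, 1621 had several gene symbols, 12147 none and 21789 a single one, of which 21698 matched RefSeq (GRCm38.p6) by Entrez ID. The 23410 with a symbol were tested by lmFit and eBayes of limma 3.58.1 (R 4.3.3), knockout minus control, over all 8 arrays, with Benjamini-Hochberg adjustment over all 23410 and no covariate. Called means an adjusted p under 0.05. Standard errors (± after log2 changes) and adjusted p-values come from this fit unless another test is named. Groups follow the phenotype labels, and replicate numbers are in accession order and pair nothing. In list genes with several clusters, the brightest was used. Locus, neighbours and order came from the RefSeq gene table, and promoter windows from RefSeq (all 20 members matched). Coordinates are given for the printed promoter windows only, in GRCm38.p6.

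The members, gene lists and tests were chosen with earlier results of these data known, and the pair comparisons after the values were seen. Named are all members, other ORs of both loci, Lhx2, Omp, called neighbours, and up to 3 called genes of each list by p. Ndufa10, Cops9, Ackr1, Fmn2 and Fh1 were named for their place, and Twist2 for its value, after the values were seen. The fit was tested on simulated data with known answers, drawn as independent normal values with each cluster's own mean and variance. It recovered 65.7% of changes of 0.5 log2 units, 97.0% of changes of 1.0 and 100% of changes of 2.0. Of its 181 calls, 6 were false. Only 66 or 67 clusters were changed at each size, while the data gave 1473 lower and 492 higher calls. These rates therefore need not hold for the data. Alternatives were 3 normalizations, 3 other tests, the title series as a block, 2 other sets of clusters, and leaving out each mouse. Figures were drawn with matplotlib 3.10.9.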

Additional observations from a re-analysis of the deposited data

Results flagged for a closer look

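In 5 of 54 groups of 4 mice (27 receptor genes of both loci, knockouts and controls), the highest or lowest mouse stood apart from the other 3 by Dixon's criterion. Chance flags about 1 in 20 groups. Olfr417 was 7.82 in knockout replicate 4, against 8.26 to 8.33 in the other knockouts. Olfr220 was 9.63 in knockout replicate 2, against 9.41 to 9.44. Olfr414 was 8.46 in control replicate 1, the control without Cre, against 7.999 to 8.056 in the other controls. In control replicate 2, Olfr12 was 7.88, against 8.14 to 8.17, and Olfr248 was 6.03, against 6.79 to 6.86. What sets these mice apart was not tested.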

How the results depend on the processing

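Of 340 values of single members under 17 alternatives, 319 kept their direction and call, 19 kept their direction but lost the call and 2 turned sign. These 21 belonged to Olfr1413, Olfr417, Olfr429 and Olfr1410. The count of members called lower was 16 to 20 over all alternatives (18 to 20 when a mouse was left out), and the median log2 change was -1.05 to -1.19 without any 1 mouse. Only relative to the mature OSN list did the median move beyond the spread between mice, to -0.61, with 1 member called higher, since this setting raises every knockout value by the fall of that list. There Olfr1413 was at 0.22 and Olfr417 at 0.0021. With the methods' t-test, 19 of 20 members were lower at the methods' unadjusted threshold, 17 at an adjusted p under 0.05 and 9 at an adjusted p under 0.01. No member was called higher in limma under the deposited scale (0 at an unadjusted p under 0.05) or by the t-test (0).

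Of the neighbouring non-OR genes, 1 was called lower after centring on the array median, 1 lower and 30 higher relative to the mature OSN list, and 0 higher after quantile normalization. Without any 1 mouse, 1 to 2 were lower and 0 to 1 higher. Blocked on title series, 3 were lower (Rgs7, Cadm3 and Fmn2, the last at adjusted p = 0.0458) and 1 higher. Apart from the mature OSN list, the cause of these changes was not tested. The deposited values carry no detection calls, so no limit of detection was set for dim clusters.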
